A study of Mus musculus with 12 samples.

Results

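Tfr2, which encodes the second transferrin receptor, was measured together with 8 further genes of cellular iron uptake, storage and export in immature blood-forming cells sorted from the bone marrow of mice. The 9 genes were Tfr2, Tfrc, Hfe, Steap3, Slc11a2, Slc40a1, Fth1, Aco1 and Ireb2, of 18194 genes named on the array. Tfr2 was chosen because its level was low in the INV16 cells, and the other genes were chosen by function with earlier results of these data known. All probe sets annotated with 1 of these symbols and no other were taken, 25 in all. Of these, 3 were control probe sets for Tfrc on the array, and 16 of the others had a mean over all arrays above the limit for testing (5.10 log2 units, the 40th percentile of probe-set means).

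The cells lacked lineage markers and Flt3 at the surface and carried c-Kit and Sca-1, the phenotype written KLSF in the sample titles and KSLF in the source names. All groups were cultured for 24 h with serum (10% FBS), SCF at 50 ng/ml and IL-6 at 5 ng/ml, exposed to a retrovirus for 4 h with polybrene, kept in fresh medium for a further 20 h and sorted for GFP. MIB control (5 arrays, replicates 3 to 7) received the vector without an insert. The 4 INV16 arrays (replicates 1 to 4) are of cells given the leukaemia fusion that joins CBFB, the partner subunit of the RUNX transcription factors, to the tail of the smooth muscle myosin MYH11. The 3 arrays named ACD mutant (replicates 1 to 3) are of cells given that fusion without its assembly competent domain, a form that causes no leukaemia according to the series' description. Sorting, transduction and hybridisation were repeated for every replicate. The cells were of normal mice; their strain, age and sex and the promoter of the vector are not given in the sources used here. GFP marks cells that carry the vector, so the fusion was forced from a retrovirus and not expressed from its own locus.

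Cells take up iron bound to transferrin through the receptor encoded by Tfrc, which is internalised; in the endosome the reductase Steap3 reduces the iron and the transporter Slc11a2 (DMT1) carries it out. Iron that is not used is stored in ferritin, whose heavy chain is encoded by Fth1, or leaves through ferroportin (Slc40a1), the only known exporter of iron in vertebrate cells. Aco1 and Ireb2 encode the iron regulatory proteins, which bind hairpins in the mRNAs of Tfrc, Fth1 and Slc40a1 when iron is scarce, stabilising the first and blocking translation of the others. Tfr2 is best known from hepatocytes, where with Hfe it reports transferrin saturation to the hepcidin pathway, and from erythroid precursors, where it associates with the erythropoietin receptor.

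RefSeq start-site windows on GRCm38.p6, from 250 bases before to 50 bases after a start, were matched for 7 of the 9 genes, 14 windows in all, with none for Slc40a1 and Slc11a2. Shown are windows of the 3 genes that had a probe set past the test in any comparison, Tfr2 (chr5:137569822-137588081), Tfrc (chr16:32608896-32632794) and Aco1 (chr4:40143265-40199009). For Tfr2, they are the window at the most upstream listed start and the only one of its 3 with a match. Each is given 5′ to 3′ on the gene's strand, the plus strand in all 4. Capitals mark the letters of the RUNX motif (TGTGGT or TGCGGT) and of the GATA motif (AGATAA or TGATAA), searched on both strands.
Tfr2, first window, chr5:137569590-137569889: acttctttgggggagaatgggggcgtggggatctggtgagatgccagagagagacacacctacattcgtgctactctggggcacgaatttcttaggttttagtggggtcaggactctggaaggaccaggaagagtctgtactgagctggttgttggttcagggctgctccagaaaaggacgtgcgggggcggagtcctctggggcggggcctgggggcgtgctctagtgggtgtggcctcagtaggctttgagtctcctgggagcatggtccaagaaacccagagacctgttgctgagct
Tfr2, window with matches, chr5:137570725-137571024: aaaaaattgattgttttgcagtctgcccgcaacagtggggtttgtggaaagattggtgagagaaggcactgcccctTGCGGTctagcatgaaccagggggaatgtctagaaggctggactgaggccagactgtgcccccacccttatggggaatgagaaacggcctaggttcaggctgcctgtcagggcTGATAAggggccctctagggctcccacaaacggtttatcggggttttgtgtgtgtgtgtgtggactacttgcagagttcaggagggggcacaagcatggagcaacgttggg
Tfrc, first window, chr16:32608646-32608945: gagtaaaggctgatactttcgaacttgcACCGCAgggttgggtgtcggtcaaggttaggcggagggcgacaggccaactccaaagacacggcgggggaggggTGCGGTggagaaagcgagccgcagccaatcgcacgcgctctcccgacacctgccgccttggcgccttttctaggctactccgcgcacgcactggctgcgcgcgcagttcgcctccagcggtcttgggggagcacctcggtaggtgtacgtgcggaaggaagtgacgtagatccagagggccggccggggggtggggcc
Aco1, only window, chr4:40143015-40143314: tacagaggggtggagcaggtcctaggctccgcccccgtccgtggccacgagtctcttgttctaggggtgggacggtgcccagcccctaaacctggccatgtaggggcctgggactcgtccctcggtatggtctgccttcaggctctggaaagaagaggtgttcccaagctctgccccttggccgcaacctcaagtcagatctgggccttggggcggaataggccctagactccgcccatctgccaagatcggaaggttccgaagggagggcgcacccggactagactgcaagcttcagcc
The latter Tfr2 window held TGCGGT with its first base at position -174 and TGATAA at -61, counted from the start site. The first Tfrc window held TGCGGT on the plus strand at -148 and on the minus strand at -222. The first Tfr2 window and that of Aco1 held neither motif. Among the windows not shown, 1 of the 4 of Steap3 held TGTGGT at -68 and at -63 and AGATAA on the minus strand at -45, and the others held none. Of all 32851 windows of 300 bases in the table, 22.4% held a RUNX match and 18.6% a GATA match, so such matches are frequent in windows of this length.

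The table gives log2 expression values, between 2.82 and 14.97, with array medians from 5.62 to 5.79. INV16 replicate 4 stood apart: its correlation with the other arrays was 0.895 to 0.917, against 0.985 to 0.996 among those 11, and its mean over 11 mast cell and basophil genes was 10.24, against 6.73 to 7.46 elsewhere. It was kept out of the groups compared here, as the rule for choosing the genes sets out, and its values are given apart. The difference between the spike-in controls BioC and BioB split the arrays into a batch A (1.07 to 1.21; MIB control 3 to 5 and INV16 1 to 3) and a batch B (-0.11 to 0.07; MIB control 6 and 7, ACD mutant 1 to 3 and INV16 4). Both fusion groups could be set against MIB control arrays of their own batch, but INV16 and ACD mutant shared no batch, so that a fit blocked on batch compares them only through the MIB control arrays of both batches. In that fit, limma called 0 probe sets between the fusions, with 2303 at an unadjusted p under 0.05. Of the sorted surface proteins, Kit had RNA values on the 11 arrays between 10.26 and 11.43, and Flt3, absent from the surface of the sorted cells, between 8.03 and 9.76. Differences below are in log2 units, with SE and adjusted p from a limma fit to the 11 arrays, and a difference was called at an adjusted p under 0.05. The 3 comparisons share arrays: MIB control serves both fusions, and the comparison between the fusions uses the same INV16 and ACD mutant arrays again.

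Tfr2 was lower on every INV16 array than on any array of the other groups. Without a block on batch, its mean in the ACD mutant was nearer to MIB control than to INV16. In its leading probe set, the one of highest mean (1459994_x_at), the MIB control arrays 3 to 7 read 10.23, 10.04, 10.41, 10.36 and 10.51. INV16 replicates 1 to 3 read 8.50, 7.90 and 9.45. The ACD mutant arrays read 9.88, 10.24 and 9.86. The suffix _x_at marks probe sets with some probes that resemble other sequences. All INV16 arrays lay below all control and all ACD mutant arrays, INV16 replicate 2 lowest and replicate 3 nearest to the others. The group means were 10.31 ± 0.18 (SD, n = 5) in MIB control, 9.99 ± 0.22 (n = 3) in ACD mutant and 8.62 ± 0.78 (n = 3) in INV16, in that order. In these bulk samples, fewer cells that express a gene and less of its RNA per cell cannot be told apart.

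INV16 was 1.70 below MIB control (SE 0.26, 95% interval -2.26 to -1.13), a 3.24-fold lower level. This is the contrast on which Tfr2 was chosen, so the difference is a description. Within batch A, it was -1.61. The ACD mutant lay 0.32 below MIB control, with ranges that overlap, and did not pass the test (SE 0.26, 95% interval -0.88 to 0.24, adjusted p = 0.559). Within batch B that difference was -0.44, and both control arrays lay above all ACD mutant arrays. INV16 was 1.38 below ACD mutant, or 2.60-fold (SE 0.29, adjusted p = 0.0408). That test shares with the choice of Tfr2 the INV16 arrays that are low, and is no independent evidence. It depended on single arrays: the adjusted p was 0.0620 without MIB control 5, 0.0534 without MIB control 6, 0.121 without INV16 1 (-1.32), 0.121 without INV16 2 (-1.02), 0.116 without ACD mutant 1 (-1.44), 0.176 without ACD mutant 2 (-1.25) and 0.0752 without ACD mutant 3 (-1.44). Blocked on the spike-in batch it was -1.17 (adjusted p = 0.415), and with all 12 arrays the adjusted p was 0.132.

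**Figure D1:**
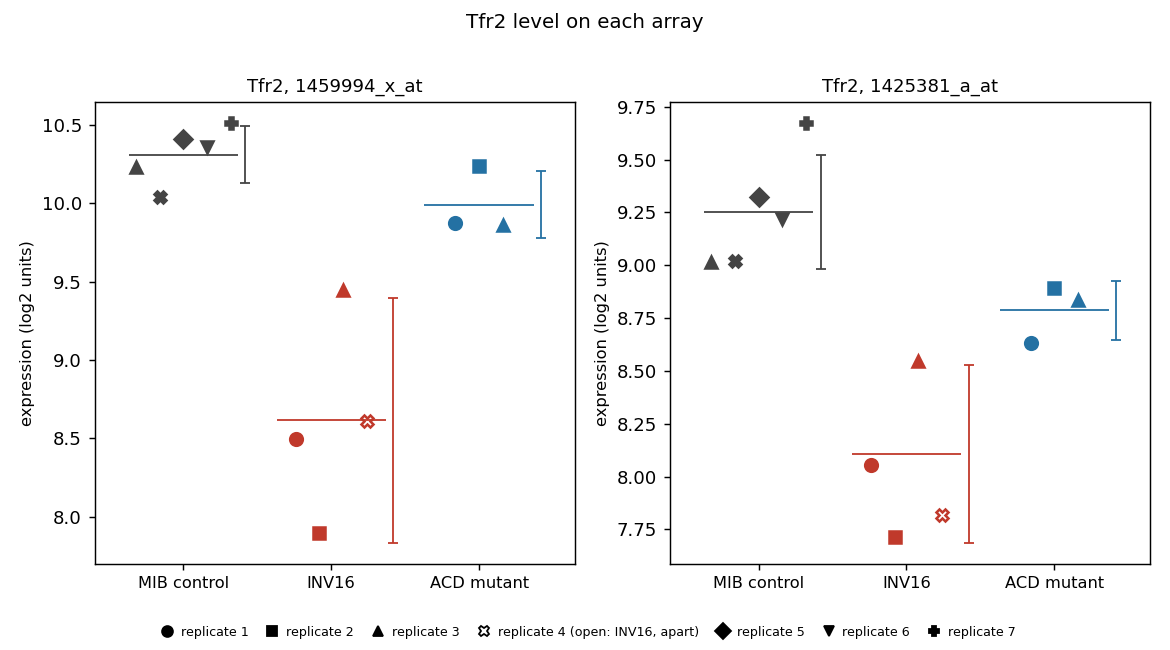
Tfr2 on each array in its 2 probe sets, as log2 expression value by group. Points are arrays, with a marker shape for each replicate number, the horizontal lines are group means without INV16 replicate 4, the error bars are SD, and the open X is INV16 replicate 4. In both probe sets every INV16 array lies below every MIB control and ACD mutant array.

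The other Tfr2 probe set (1425381_a_at) showed the same order of the groups. MIB control read 9.02, 9.02, 9.32, 9.22 and 9.67, INV16 replicates 1 to 3 read 8.05, 7.71 and 8.55, and ACD mutant read 8.63, 8.89 and 8.84. Here the ACD mutant arrays all lay between those of the other groups. The difference from MIB control was -1.14 for INV16 and -0.46 for ACD mutant (adjusted p = 0.193), and INV16 was 0.68 below ACD mutant (adjusted p = 0.117). The latter 2 were not called, although the groups do not overlap. Blocked on batch, they were -0.66 for ACD mutant against MIB control and -0.36 for INV16 against ACD mutant. In that fit the ACD mutant was thus nearer to INV16 than to MIB control in this probe set. Across the 11 arrays both Tfr2 probe sets moved together (Pearson r = 0.95).

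Tfrc, the receptor that brings in most transferrin-bound iron, gave different answers by probe set. In the leading probe set (1452661_at), MIB control read 12.74, 12.73, 12.16, 12.46 and 12.40. INV16 replicates 1 to 3 read 12.08, 12.51 and 11.71, and ACD mutant read 12.56, 12.45 and 12.79. The ranges of MIB control overlapped those of both fusions. The differences were -0.40 for INV16 (adjusted p = 0.323) and 0.11 for ACD mutant (95% interval -0.28 to 0.50, adjusted p = 0.809) against MIB control, and -0.50 for INV16 against ACD mutant (adjusted p = 0.212), none of them called.

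A further Tfrc probe set (1422966_a_at) was higher in the ACD mutant than in both other groups. MIB control read 7.74, 7.74, 7.98, 8.35 and 8.16, INV16 replicates 1 to 3 read 7.72, 8.004 and 8.16, and ACD mutant read 9.16, 9.43 and 8.90. The ACD mutant arrays all lay above the rest, and the INV16 and MIB control arrays overlapped. ACD mutant exceeded MIB control by 1.17, or 2.25-fold (SE 0.17, adjusted p = 0.0140), and INV16 lay 1.20 below ACD mutant (SE 0.19, adjusted p = 0.0130). INV16 and MIB control differed by -0.03 (adjusted p = 0.956).

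Within batch B the excess of the ACD mutant was 0.91 (adjusted p = 0.0607), and blocked on batch it was 0.91 (adjusted p = 0.0827). It also missed the threshold with all 12 arrays (1.17, adjusted p = 0.285) and without ACD mutant 1 (1.17, adjusted p = 0.0887) or 2 (1.04, adjusted p = 0.0858). The difference between the fusions missed it without INV16 1 (-1.08, adjusted p = 0.0541), INV16 2 (-1.22, adjusted p = 0.0561) or ACD mutant 2 (-1.07, adjusted p = 0.0776), in the fit blocked on batch (-0.77, adjusted p = 0.371) and with all 12 arrays (-1.45, adjusted p = 0.0909).

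**Figure D2:**
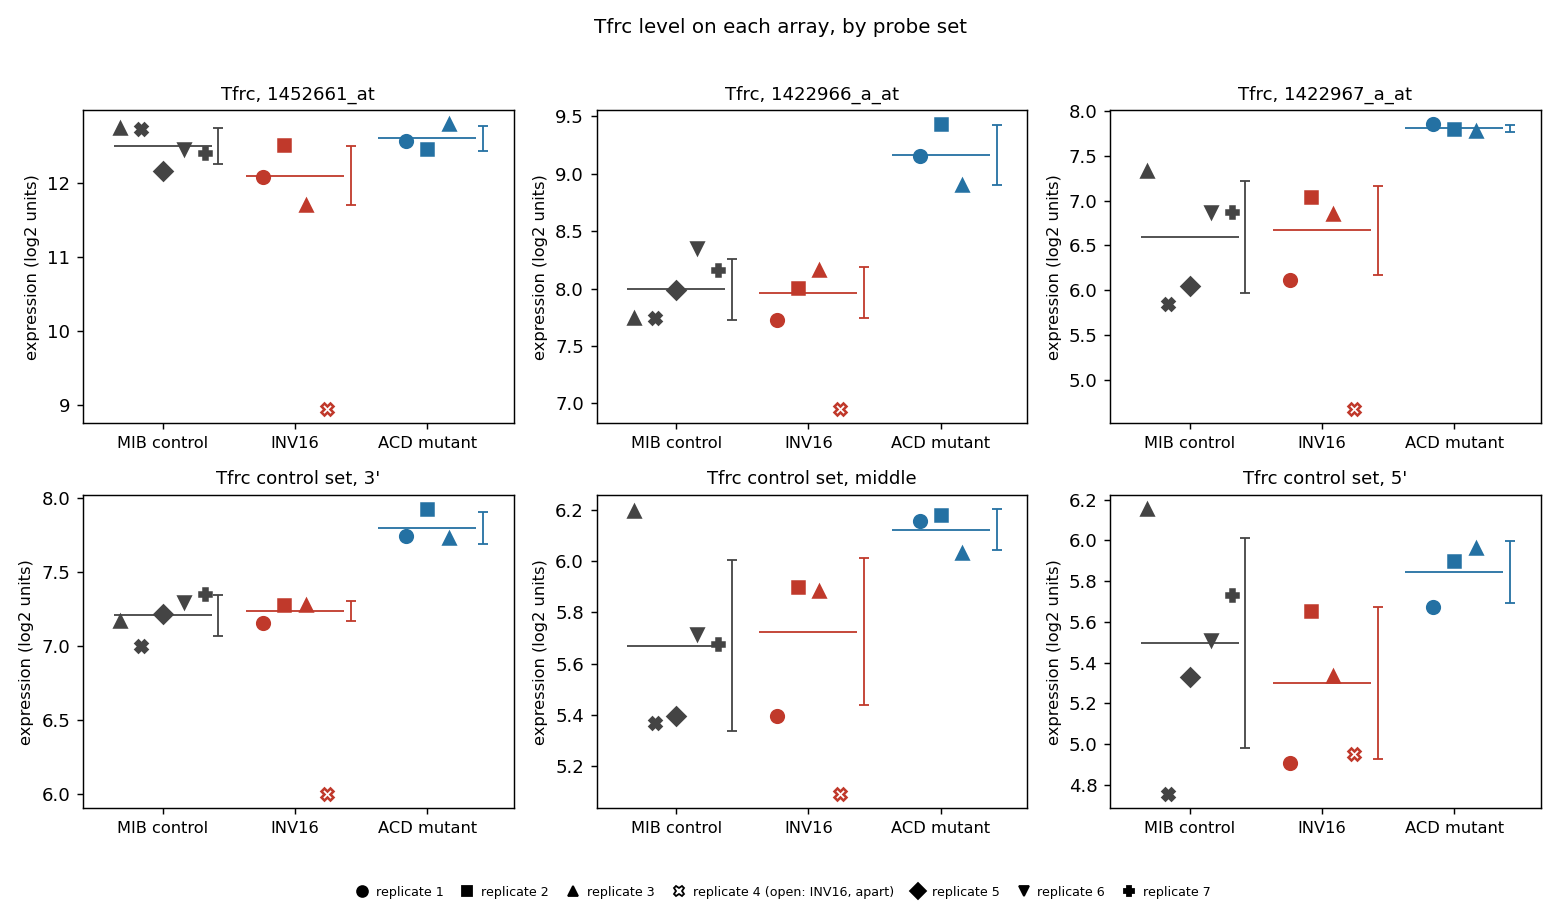
Tfrc on each array in its tested and control probe sets, as log2 expression value by group. Points are arrays, with a marker shape for each replicate number, the horizontal lines are group means without INV16 replicate 4, the error bars are SD, and the open X is INV16 replicate 4. The ACD mutant arrays lie above all others in 1422966_a_at, at 8.90 to 9.43, but not in 1452661_at, and INV16 replicate 4 is the lowest array in all sets but the 5′ control set.

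The other 4 Tfrc probe sets were read in the same way. In 1422967_a_at the ACD mutant arrays (7.77 to 7.85) lay above the MIB control arrays (5.84 to 7.33) and the INV16 arrays (6.11 to 7.04), and the difference from MIB control was 1.22 (adjusted p = 0.0589; 0.94 within batch B, adjusted p = 0.0270). INV16 was 1.14 below ACD mutant there (adjusted p = 0.109). The control probe sets, which were not tested, differed between ACD mutant and MIB control by 0.59 at the 3′ end, with no overlap, and by 0.45 in the middle and 0.35 at the 5′ end, with overlap. The 3′ control set followed 1422966_a_at closely over the 11 arrays (r = 0.98), whereas 1452661_at did not (r = 0.20). The 3′ set exceeded the 5′ set by 1.01 to 2.24 in MIB control, 1.62 to 2.25 in INV16 and 1.76 to 2.07 in ACD mutant, ranges that overlap. For the Gapdh control sets this excess was 1.34 to 1.76 in MIB control and 1.10 to 1.53 in INV16 replicates 1 to 3. In ACD mutant 1, 2 and 3 it was 3.17, 1.98 and 1.63, all above INV16, and its part in the differences of the ACD mutant was not tested. Which transcripts each probe set reads was not looked up here, and the part of transcript forms in their disagreement was not tested.

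Hfe, the MHC class I-like partner of the transferrin receptors, showed no difference past the test. Its leading probe set (1422645_at) read 7.37, 7.46, 7.52, 8.24 and 7.50 in MIB control, 7.00, 7.47 and 7.44 in INV16 replicates 1 to 3 and 7.75, 7.46 and 7.43 in ACD mutant. MIB control 6 was the highest array. The differences from MIB control were -0.31 for INV16 (95% interval -0.72 to 0.10, adjusted p = 0.476) and -0.07 for ACD mutant (-0.48 to 0.34, adjusted p = 0.883), and INV16 was 0.24 below ACD mutant (adjusted p = 0.591). The second Hfe probe set (1450702_at, 4.40 to 4.90) was under the limit for testing.

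Of the endosomal proteins, Steap3, the ferrireductase, showed no difference past the test. Its leading probe set (1423468_at) read 7.07, 6.47, 7.36, 7.72 and 7.50 in MIB control, 6.70, 6.77 and 7.31 in INV16 replicates 1 to 3 and 7.49, 7.37 and 7.50 in ACD mutant. Each INV16 array lay below each ACD mutant array, and the control arrays spanned both. The differences were -0.29 for INV16 (adjusted p = 0.613) and 0.23 for ACD mutant (adjusted p = 0.655) against MIB control, and -0.52 between the fusions (adjusted p = 0.314), which turned to 0.12 blocked on batch. The ACD mutant value was -0.15 within batch B. Its other 2 probe sets were under the limit, at 3.87 to 4.60.

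Slc11a2, the proton-coupled transporter that moves ferrous iron into the cytosol, had 3 tested probe sets, none of them called. In 1417584_at, INV16 replicates 1 to 3 (6.69, 6.59 and 6.81) lay just below the MIB control arrays (6.83 to 7.09), a difference of -0.28 (adjusted p = 0.233). In the leading set (1452078_a_at) INV16 and MIB control differed by -0.03 and ACD mutant and MIB control by -0.29, the latter with 1 low array, ACD mutant 2, at 6.83 against 7.60 and 7.58. In 1426441_at the differences from MIB control were 0.20 and 0.28. The probe sets thus gave differences of both signs for INV16. The fourth, 1441709_at, was under the limit.

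Slc40a1 (ferroportin) lay near the limit for testing and varied within groups. Its tested probe set (1417061_at) read 6.28, 5.78, 6.06, 6.47 and 5.67 in MIB control, 6.32, 5.81 and 6.92 in INV16 replicates 1 to 3 and 5.37, 6.13 and 5.36 in ACD mutant. All ranges overlap. The differences were 0.30 for INV16 (95% interval -0.26 to 0.86, adjusted p = 0.652) and -0.43 for ACD mutant (-0.99 to 0.14, adjusted p = 0.404) against MIB control, and 0.73 for INV16 against ACD mutant (adjusted p = 0.211). The other probe set, 1448566_at, was under the limit, at 4.13 to 4.79.

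Fth1, the ferritin heavy chain with ferroxidase activity, had lower means in both fusion groups than in MIB control, and no difference was called. The leading set (1448771_a_at) read 13.54, 12.94, 13.28, 13.68 and 13.43 in MIB control, 12.63, 13.19 and 12.93 in INV16 replicates 1 to 3 and 12.60, 12.90 and 13.00 in ACD mutant. MIB control 4 lay among the fusion arrays, and the other control arrays above them. The differences from MIB control were -0.46 for INV16 (adjusted p = 0.232) and -0.54 for ACD mutant (adjusted p = 0.112). In 1427021_s_at the ACD mutant arrays read 11.77, 12.11 and 12.74 against 12.64 to 13.16 in MIB control, a difference of -0.74 (adjusted p = 0.0695), and INV16 differed by -0.27. The 2 sets correlated at r = 0.86 over the 11 arrays. The suffix _s_at marks probes shared between genes, and Fth1 has processed copies in the genome, so this set is uncertain.

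Aco1, the cytosolic aconitase that becomes an iron regulatory protein when it lacks its iron-sulphur cluster, was higher in the ACD mutant in its leading probe set (1456728_x_at). MIB control read 9.62, 9.76, 9.58, 10.04 and 9.56, INV16 replicates 1 to 3 read 9.89, 9.87 and 9.50, and ACD mutant read 10.64, 10.38 and 10.58. All ACD mutant arrays lay above all others. ACD mutant exceeded MIB control by 0.82, or 1.77-fold (SE 0.14, adjusted p = 0.0199), INV16 differed from MIB control by 0.04 (95% interval -0.26 to 0.34, adjusted p = 0.926), and INV16 lay 0.78 below ACD mutant (SE 0.15, adjusted p = 0.0302).

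The second Aco1 set (1423644_at) did not show this: there ACD mutant differed from MIB control by 0.24 (adjusted p = 0.371), INV16 from MIB control by 0.20 (adjusted p = 0.540) and INV16 from ACD mutant by -0.04 (adjusted p = 0.923), with r = 0.64 between both sets. The called set is again an _x_at set. In it the excess of the ACD mutant was 0.73 within batch B (adjusted p = 0.0782) and 0.73 blocked on batch (adjusted p = 0.104), and with all 12 arrays it was 0.82 (adjusted p = 0.569). It missed the threshold without MIB control 5 (0.79, adjusted p = 0.0511), ACD mutant 1 (0.77, adjusted p = 0.130) or ACD mutant 2 (0.90, adjusted p = 0.0799). The difference between the fusions missed it without any 1 of the 6 arrays concerned (-0.65 to -0.86, adjusted p from 0.0696 to 0.127), and it was -0.64 blocked on batch (adjusted p = 0.390) and -0.36 with all 12 arrays (adjusted p = 0.674). The last Aco1 probe set (1447080_at) was under the limit.

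**Figure D3:**
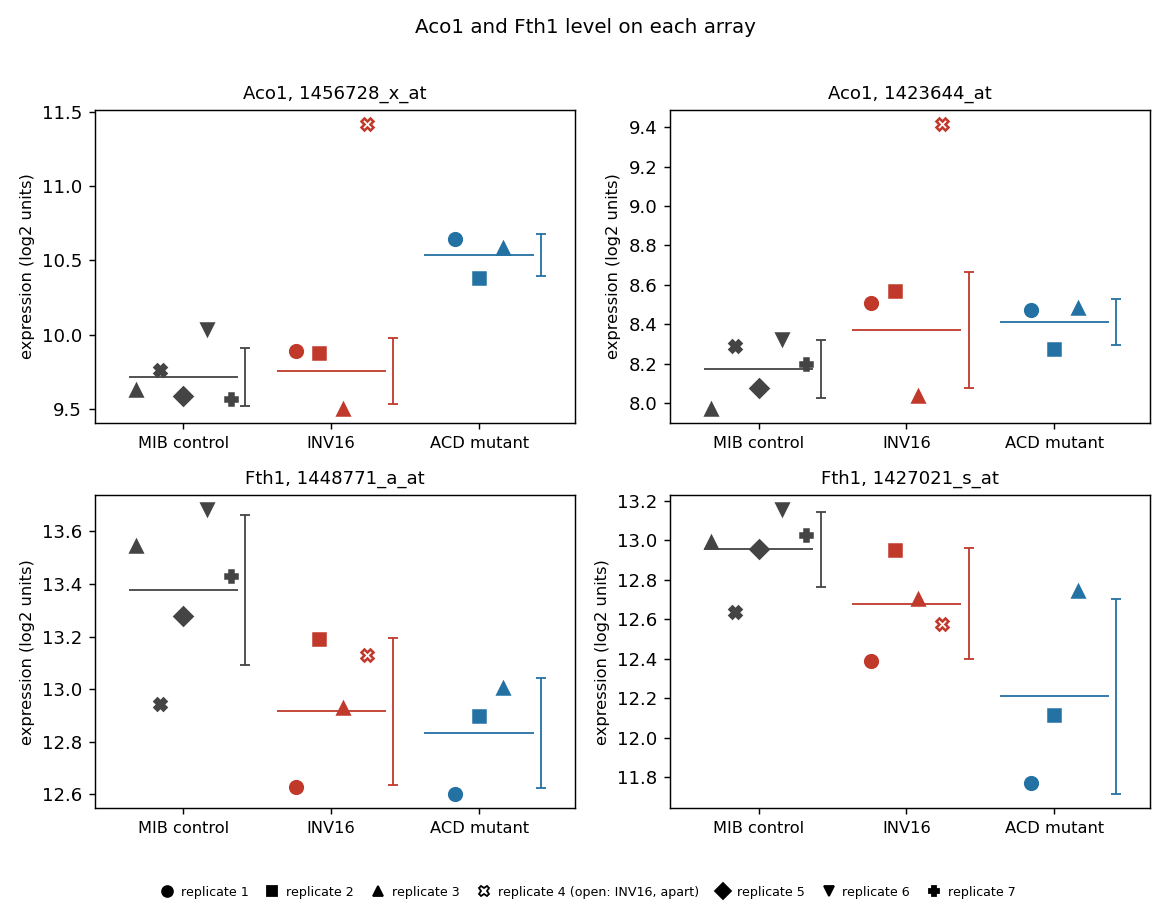
Aco1 and Fth1 on each array in their tested probe sets, as log2 expression value by group. Points are arrays, with a marker shape for each replicate number, the horizontal lines are group means without INV16 replicate 4, the error bars are SD, and the open X is INV16 replicate 4. In Aco1 1456728_x_at the ACD mutant arrays, at 10.38 to 10.64, stand above the MIB control arrays and INV16 replicates 1 to 3, and INV16 replicate 4 is higher still, at 11.42; in 1423644_at they overlap both groups, and both Fth1 sets have their highest mean in MIB control.

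Ireb2, the second iron regulatory protein, did not differ past the test between any groups. Its probe set (1433527_at) read 9.12, 9.45, 9.34, 8.91 and 8.70 in MIB control, 9.33, 9.31 and 8.92 in INV16 replicates 1 to 3 and 9.07, 9.05 and 9.23 in ACD mutant. The control arrays span the whole range of the fusions. The differences were 0.08 (95% interval -0.28 to 0.44, adjusted p = 0.869), 0.01 (-0.35 to 0.37, adjusted p = 0.982) and 0.07 (adjusted p = 0.877) for INV16 against MIB control, ACD mutant against MIB control and INV16 against ACD mutant.

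Counted over the 16 tested probe sets, 2 were called between INV16 and MIB control, both of Tfr2, against 1.39% of all 22683 probe sets tested; as the choice of Tfr2 used that contrast, nothing is read from it. Between ACD mutant and MIB control, 2 of 16 were called, the Tfrc and Aco1 sets above, both higher, against 1.68% of all. Between INV16 and ACD mutant, 3 of 16 were called, of Tfr2, Tfrc and Aco1, all lower in INV16, against 1.27% of all. That count holds Tfr2, chosen for its low level on the same INV16 arrays, so nothing is read from it either. The background split was uneven: of the 289 probe sets called between the fusions, 54 were higher and 235 lower in INV16, and 86 and 172 after quantile normalization. For INV16 against MIB control it was 149 higher and 166 lower, and for ACD mutant against MIB control 227 and 155.

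Counted by the leading probe set of each of the 9 genes, INV16 against MIB control gave 0 higher (3447 of all probe sets had an unadjusted p under 0.05) and 1 lower, Tfr2, where 0.472% and 0.929% of all 12912 genes were called in those directions. ACD mutant against MIB control gave 1 higher, Aco1, and 0 lower, where 0.852% and 0.604% of all genes were called. INV16 against ACD mutant gave 0 higher and 2 lower, Tfr2 and Aco1, where 0.209% and 1.18% of all genes were called. Both counts that hold Tfr2 are a description, as the gene was chosen for its low INV16 arrays. Those 2 and Steap3 were the 3 genes in which all INV16 arrays lay below all ACD mutant arrays. The share of all genes for which this holds was not counted, so nothing is read from that number. The median differences of the 9 genes were -0.29, -0.07 and -0.24 in the 3 comparisons, beside -0.03, 0.01 and -0.02 over all genes.

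**Figure D4:**
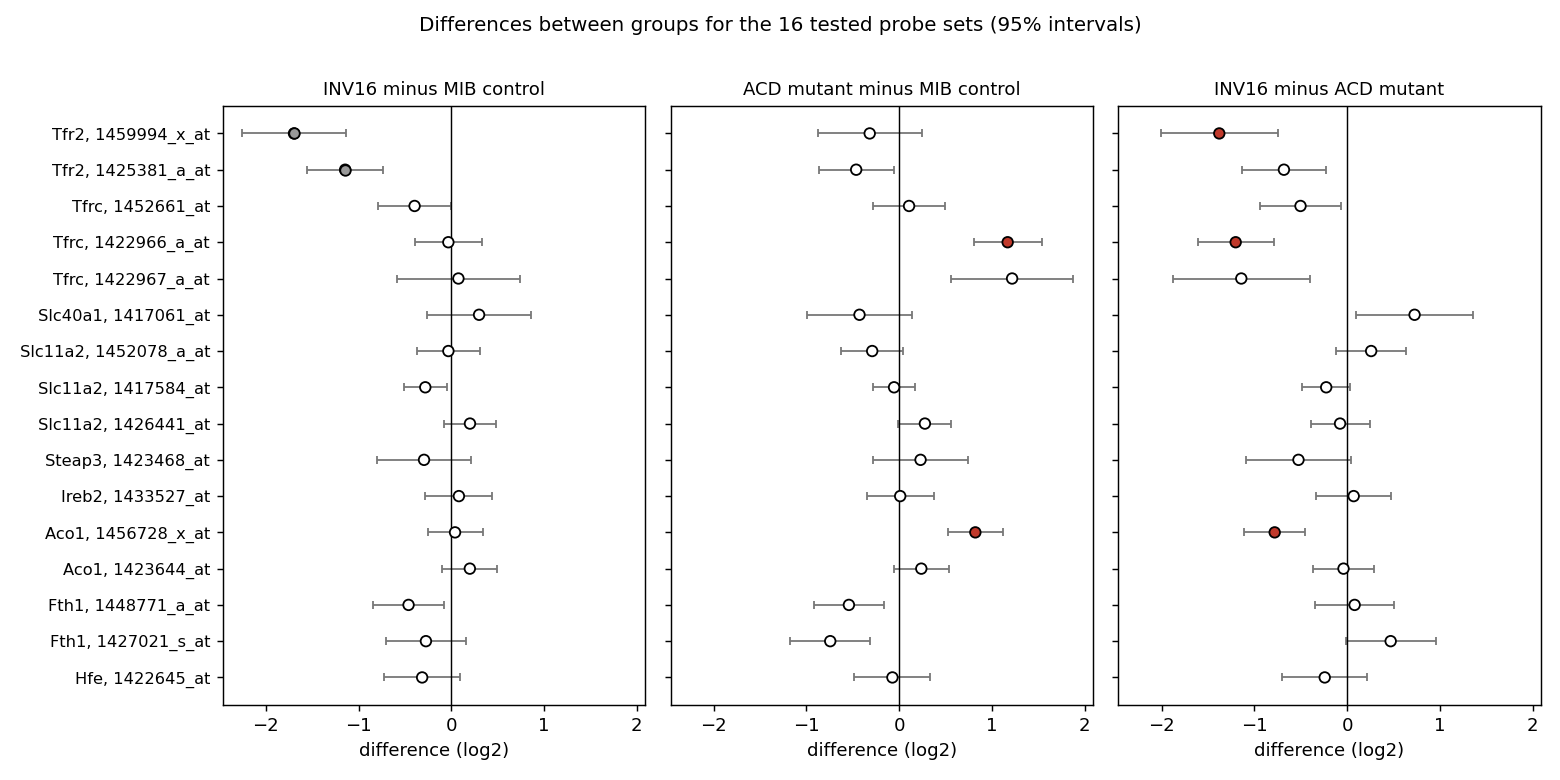
Differences of the tested probe sets of the 9 genes in the 3 comparisons, in log2 units, with bars for 95% intervals. Red points passed an adjusted p under 0.05, white points did not, and grey marks Tfr2 between INV16 and MIB control, a description only, since the gene was chosen on that difference. The called sets are those of Tfrc (1.17) and Aco1 (0.82) in ACD mutant against MIB control, and those of Tfr2, Tfrc and Aco1 between the fusions.

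The rest of iron and haem metabolism is given by its counts. Of 67 other genes in 6 lists, covering iron uptake, ferritin turnover, control of the regulatory proteins, export and hepcidin control, mitochondrial iron and iron-sulphur clusters, and haem, 57 were on the array and 48 were tested. With limma, 0 of them were called between INV16 and MIB control (0.472% of all genes were called higher and 0.929% lower) and 0 between ACD mutant and MIB control (0.852% and 0.604%). At an unadjusted p under 0.05 there were 3447 and 4457 of all probe sets. Between INV16 and ACD mutant 1 was called (0.209% and 1.18% of all genes), which is near the background, Slc48a1, a transporter of haem out of endosomes and lysosomes. It read 9.50, 9.39 and 10.02 in INV16 replicates 1 to 3 and 10.53, 10.75 and 10.49 in ACD mutant, a difference of -0.95 (SE 0.20, adjusted p = 0.0424), with no overlap. Blocked on batch the difference was -0.80 and was not called (adjusted p = 0.423). MIB control spanned both, at 9.93 to 10.72. The median differences of the 48 genes were -0.07, -0.00 and -0.03, with 17, 23 and 22 above 0. In the list of mitochondrial iron and iron-sulphur cluster genes, 0 of 11 were above 0 between INV16 and MIB control, with a median of -0.16 and 0 called, and 3 of 11 between ACD mutant and MIB control, with a median of -0.13 and 0 called. That list was the lowest of the 6. In the others, some of which hold members, 6 of 15, 1 of 4, 3 of 5, 3 of 6 and 7 of 16 were above 0 between INV16 and MIB control. The share of all genes above 0 was not counted, so nothing is read from these counts.

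Single genes around the members are given by their values. Ncoa4, the receptor that carries ferritin to lysosomes, differed by -0.23 (INV16 against MIB control, adjusted p = 0.361), 0.29 (ACD mutant against MIB control, adjusted p = 0.188) and -0.52 (INV16 against ACD mutant, adjusted p = 0.0665). Its INV16 arrays (11.05 to 11.20) lay below its ACD mutant arrays (11.49 to 11.76). Fbxl5, the iron-sensing subunit of the ligase that degrades Ireb2 protein, differed by 0.18, -0.06 and 0.24 in the same order, and the iron chaperone Pcbp1 by -0.02, -0.12 and 0.10, none called. Hmox1, which opens the haem ring and frees its iron, lay 0.35 above MIB control in INV16 (adjusted p = 0.208). Alas2, the erythroid enzyme at the start of haem synthesis, was under the limit, at 3.84 to 4.27 on the 11 arrays. Ftl1, the ferritin light chain, was not analysed here.

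As Tfr2 is a gene of erythroid precursors, the erythroid list is given beside it. Of its 16 genes on the array, 11 were tested. Between INV16 and MIB control, 0 were higher and 2 lower, Nfe2 (-1.55, adjusted p = 0.00893) and Hemgn (-0.78, adjusted p = 0.0485), where 0.929% of all genes were called lower, and the median was -0.27. Blocked on batch, Nfe2 was -1.22 (adjusted p = 0.0115) and Hemgn -0.71 (adjusted p = 0.119). The same genes were lower in INV16 than in ACD mutant (-1.74, adjusted p = 0.0104, and -1.01, adjusted p = 0.0282), where 1.18% of all genes were called lower, and the median was -0.54. Neither was called there blocked on batch (-0.93, adjusted p = 0.343, and -0.85, adjusted p = 0.380). Between ACD mutant and MIB control none of the 11 was called in limma, 9 were above 0 and the median was 0.19. Gata1, the erythroid and megakaryocytic transcription factor, differed by -0.10 between INV16 and MIB control and by 1.30 between ACD mutant and MIB control (adjusted p = 0.0864), Epor, the erythropoietin receptor, by 0.03 and 0.57 (adjusted p = 0.159), and Klf1 by -0.36 and 0.27. Each of these genes read higher on the batch B control arrays (6 and 7) than on those of batch A. Gata1 read 7.68, 8.35 and 8.29 on MIB control 3 to 5, below INV16 replicates 1 to 3 (8.60, 8.47 and 8.53). On MIB control 6 and 7 it read 8.78 and 10.08, against 10.12, 9.85 and 9.84 in ACD mutant. In the same order, Epor read 7.68 and 7.82 against 7.86, 8.30 and 7.71, and Klf1 6.68 and 7.31 against 7.06, 6.93 and 6.83. The mean of the 16 genes ran from 6.93 to 7.56 on the MIB control arrays, 6.92 to 6.96 in INV16 and 7.28 to 7.35 in ACD mutant. Hba-a1, a globin gene of mature erythroid cells, was under the limit for testing, at 3.96 to 4.56 on the 11 arrays. The part of erythroid cells in the Tfr2 difference was not tested.

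Markers of other cell types are given beside the values of the ACD mutant. The mean of 10 megakaryocyte genes was 8.27 to 8.53 in ACD mutant, 7.30 to 8.72 in MIB control and 7.38 to 7.44 in INV16. Of 9 tested, 8 were above 0 between ACD mutant and MIB control, with a median of 0.82 and 1 called, Selp (1.14, adjusted p = 0.0138). Between INV16 and ACD mutant 0 were above 0, with a median of -1.01. The mast cell and basophil list (9 tested) had 1 gene called higher in ACD mutant than in MIB control, Hdc (1.56, adjusted p = 0.0153; 1.25 blocked on batch, adjusted p = 0.0895), and its mean over 11 genes was 7.29 to 7.42 in ACD mutant against 6.73 to 7.46 in MIB control. Between INV16 and MIB control, the megakaryocyte list had 1 gene called, Selp, which was higher, with a median of -0.45, and the mast cell and basophil list had 0 called, with a median of -0.09; in neither list was a gene called between the fusions. The shares of all genes called, given above, lay between 0.209% and 1.18% in each direction, and the lists' counts of 0 or 1 are too small to be read against them. The 7 tested monocyte and macrophage genes had 0 called for INV16 against MIB control, 0 for ACD mutant against MIB control and 1 lower for INV16 against ACD mutant, with medians of -0.37, 0.36 and -0.56. The 8 neutrophil genes had 1 called lower, 0 and 0 in that order, with medians of -0.46, -0.17 and -0.36. The 7 lymphoid genes had 1 higher and 1 lower, then 0 and 0, with medians of 0.04, 0.06 and -0.01. Of Kit and Flt3, which the sort used, and the progenitor marker Cd34, 0 were called. The limma counts at an unadjusted p under 0.05 over all probe sets were 3447, 4457 and 4160. The part of these cells in the Tfrc and Aco1 differences was not tested.

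Over the 11 arrays, the genes whose leading probe sets followed that of Tfr2 most closely were Adgrg3 (Pearson r = 0.97), Cpne2 (0.96), Acot11 (0.96), Abcc1 (0.95) and Tuba8 (0.95), out of 12912. Adgrg3 encodes an adhesion G protein-coupled receptor, Cpne2 a calcium-dependent membrane-binding protein, Acot11 an acyl-CoA thioesterase, Abcc1 an efflux pump and Tuba8 an alpha-tubulin. Adgrg3 ran from 9.32 to 10.05 in INV16, against 10.69 to 11.05 on the other arrays. Cpne2 ran from 6.39 to 6.86 in INV16, against 7.22 to 7.79. The most opposite genes were Dntt (r = -0.95), which encodes the terminal transferase of lymphoid progenitors, Map3k8 (-0.95), a kinase of inflammatory signalling, and Hcar2 (-0.94), the niacin receptor. Dntt read 11.09, 10.81 and 7.75 in INV16 replicates 1 to 3, so that replicate 3, highest in Tfr2 of the INV16 arrays, was lowest in Dntt, and it ran from 6.08 to 7.82 elsewhere. All these points share the grouping by which Tfr2 was chosen. The members correlated with Tfr2 at r = 0.57 for Steap3, 0.43 for Hfe, 0.40 for Fth1, 0.23 for Tfrc, 0.01 for Aco1, -0.07 for Slc40a1, -0.19 for Slc11a2 and -0.41 for Ireb2, each over the 11 arrays.

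INV16 replicate 4 had the Tfr2 level of its group and unlike levels of several other members. Tfr2 read 8.61 and 7.82 in its 2 probe sets, both within the range of the other INV16 arrays. Tfrc 1452661_at read 8.95, a difference of -3.15 from the mean of INV16 replicates 1 to 3, and Ireb2 read 7.51, below all 11 arrays. Aco1 1456728_x_at (11.42) and Slc11a2 1417584_at (8.08) lay above all 11 arrays. Of the 16 tested member probe sets, 5 were above and 5 below the range of the 11, or 62.5%, against 70.0% of all probe sets tested. On that array the erythroid mean was 8.64, Alas2 was at 6.25 and Klf1 at 10.72, and the megakaryocyte mean was 6.12. The mast cell genes Fcer1a and Cma1 read 13.31 and 12.70 there, against 4.27 to 5.74 and 4.50 to 5.27 on the 11 arrays. Cd34 read 7.39, against 11.15 to 12.35. With markers this unlike those of the other arrays, its Tfr2 level is not read as a further replicate. The erythroid genes were not all high there: Hemgn read 8.60, below all 11 arrays, Nfe2 9.91, within their range, and Hba-a1 4.57.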

How the data were processed

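RNA from 12 samples was amplified in 2 cycles of cDNA synthesis and hybridised to 1 Affymetrix mouse array each, per the labels' protocols. The deposited table holds 45101 probe sets as log2 values, read as log2 from their range; the authors' background correction, normalization and summarisation are not given in the sources used here. The number of arrays limits the precision. Columns of values not used numbered 0.

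Gene names came from GEO's annotation of the platform: 34958 probe sets had 1 symbol, 932 several and 9211 none. Those with 1 symbol, no control role and a 12-array mean over 5.10 (the 40th percentile of such means) were tested, 22683 for 12912 genes. A group-means model was fitted to 11 arrays with limma 3.58.1 in R 4.3.3 (8 residual and 4.67 prior degrees of freedom), two-sided, with Benjamini-Hochberg adjustment over all probe sets and calls at 0.05; the procedure was tested on simulated data. Each gene was led by its probe set of highest mean. Pairwise, arrays of a group differed with an SD of 0.224 to 0.371, so none was a duplicate, and of 0.947 to 1.04 where INV16 replicate 4 was in the pair. Arrays were split by BioC minus BioB at 0.5.

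The members and all lists (6 of iron and haem, and erythroid, megakaryocyte, monocyte and macrophage, neutrophil, mast cell and basophil and lymphoid markers, and Kit, Flt3 and Cd34) were chosen with earlier results of these data known. Named genes were all members, called genes of the iron, haem and erythroid lists, a set of core genes of those pathways whatever their test, the 5 genes most like and the 3 most opposite to Tfr2, and markers of other cells that moved with a member. Alternatives were all 12 arrays, no filter, quantile normalization, 1 probe set per gene, only the groups compared, the batch as a block or within a batch, the replicate number as a block, and each array left out in turn. Coordinates and sequences are from RefSeq on GRCm38.p6.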

Additional observations from a re-analysis of the deposited data

Results flagged for a closer look

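Among 32 groups of 4 or 5 arrays tested for a far array, 4 were flagged, where chance gives about 1 in 20. Slc11a2 1452078_a_at was 7.73 on MIB control 6, with the next control array at 7.62. Hfe 1422645_at was 8.24 on the same array, with the next at 7.52. Slc11a2 1417584_at was 8.08 on INV16 replicate 4, with the next INV16 array at 6.81. Steap3 1423468_at was 7.31 on INV16 replicate 3, with the next at 6.78.

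The effect of the 2 fusions, each set against the same MIB control arrays, differed in 3 probe sets by the limma test of INV16 against ACD mutant. Tfr2 was chosen for its low level on these INV16 arrays, so its test supports nothing. The differences were -1.38 for Tfr2 1459994_x_at, -1.20 for Tfrc 1422966_a_at and -0.78 for Aco1 1456728_x_at. In the first, INV16 was the group away from MIB control, and in the other two the ACD mutant was. INV16 and ACD mutant share no spike-in batch. Blocked on batch, which compares them through MIB control, none of the 3 was called (adjusted p = 0.415, 0.371 and 0.390).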

How the results depend on the processing

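Over the alternatives other than leaving out an array, 292 values kept direction and side of the threshold, 19 lost a call, 3 gained one, 32 changed sign and 1 moved; with an array left out the numbers were 485, 21, 2, 20 and 0. For Tfr2 between INV16 and MIB control, no threshold was used. There a kept value has the same sign and differs from that of the main fit by less than the within-group SD. A moved value differs by more. The limits are the 3 to 5 arrays a group and signal near background in dim probe sets.

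The 315 probe sets called between INV16 and MIB control became 47 with all 12 arrays, 173 with the batch as a block, 12 within batch A, 120 with only the 2 groups, and 38 to 622 with an array left out (38 without INV16 1, 77 without INV16 2, 153, 172 and 207 without MIB control 5, 6 and 7, 209 without ACD mutant 1, 622 and 499 without MIB control 3 and 4). The 382 between ACD mutant and MIB control became 5 with all 12 arrays, 219 with 1 probe set per gene, 580 after quantile normalization, 23 with the batch as a block, 93 within batch B, 119 with only the 2 groups, and 10 to 760 with an array left out (10 and 12 without ACD mutant 1 and 2, 67 and 760 without MIB control 5 and 7, 160 and 204 without INV16 1 and 2). The 289 between the fusions became 20 with all 12 arrays, 0 with the batch as a block in limma (2303 at an unadjusted p under 0.05), 1057 with only the 2 groups, and 43 to 508 with an array left out (43, 89 and 164 without ACD mutant 2, 1 and 3, 72 and 49 without INV16 1 and 2, 478 and 508 without MIB control 3 and 7). The Tfr2 call between the fusions also missed the threshold with all 12 arrays (adjusted p = 0.132), without the filter (0.0507), after quantile normalization (0.0579) and with only the 2 groups (0.0504). The cause was not tested.

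No pairing by replicate number was seen: deviations of INV16 and ACD mutant arrays of 1 number correlated at -0.32 to -0.13, and 0 of 6 arrays correlated best with its own number. MIB control 3 correlated at -0.32 with INV16 3 and at 0.03 with ACD mutant 3. INV16 and ACD mutant arrays of 1 number were never of 1 spike-in batch, which limits this check. The replicate number was also used as a block. On the 11 arrays the numbers 4 to 7 occur only in MIB control. In that fit, comparisons with MIB control therefore rest on MIB control 3 alone, and nothing is read from calls lost or signs turned in them. Tfr2 1425381_a_at differed by -0.66 between INV16 and MIB control. The calls of Tfrc 1422966_a_at and Aco1 1456728_x_at between ACD mutant and MIB control were not kept. Between the fusions, limma calls were lost for Tfr2 (adjusted p = 0.0758) and Aco1 1456728_x_at (0.0607). Tfrc 1422967_a_at gained a call between the fusions, in that fit (0.0469) and with only the 2 groups (0.0274). Signs turned in that fit, none past the threshold, for ACD mutant against MIB control in Hfe (0.19), Ireb2 (-0.083), Slc11a2 1417584_at (0.034), Tfr2 1425381_a_at (0.016), Tfr2 1459994_x_at (0.11) and Tfrc 1452661_at (-0.24), and for INV16 against MIB control in Ireb2 (-0.012), Slc11a2 1452078_a_at (0.11), Steap3 (0.073), Tfrc 1422966_a_at (0.19) and Tfrc 1422967_a_at (-0.59).

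Other changes of sign were in uncalled differences. With all 12 arrays, INV16 against MIB control gave Ireb2 -0.34, Slc11a2 1417584_at 0.066, Slc11a2 1452078_a_at 0.11 and Tfrc 1422967_a_at -0.42, and INV16 against ACD mutant gave Aco1 1423644_at 0.22, Ireb2 -0.35, Slc11a2 1417584_at 0.12 and Slc11a2 1426441_at 0.081. After quantile normalization, Aco1 1423644_at was 0.032 between the fusions and Tfrc 1422966_a_at 0.011 between INV16 and MIB control. With the batch as a block, INV16 against ACD mutant gave Aco1 1423644_at 0.11, Hfe 0.18, Ireb2 -0.43, Slc11a2 1426441_at 0.23 and Steap3 0.12, INV16 against MIB control gave Ireb2 -0.12 and Tfrc 1422966_a_at 0.14, as within batch A, and ACD mutant against MIB control gave Steap3 -0.15, as within batch B. With an array left out, INV16 against ACD mutant ranged from -0.14 to 0.13 for Aco1 1423644_at, -0.056 to 0.22 for Fth1 1448771_a_at, -0.00064 to 0.20 for Ireb2 and -0.15 to 0.0095 for Slc11a2 1426441_at. INV16 against MIB control ranged from -0.028 to 0.17 for Aco1 1456728_x_at, -0.020 to 0.22 for Ireb2, -0.090 to 0.0048 for Slc11a2 1452078_a_at, -0.13 to 0.088 for Tfrc 1422966_a_at and -0.11 to 0.36 for Tfrc 1422967_a_at. ACD mutant against MIB control ranged from -0.17 to 0.082 for Hfe and -0.091 to 0.10 for Ireb2.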
